A study of Saccharomyces cerevisiae with 12 samples.

Results

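ADY2 (YCR010C, also known as ATO1), ATO2 (YNR002C, also known as FUN34) and ATO3 (YDR384C) make up the ATO family of plasma membrane transporters in budding yeast. They were chosen by their systematic names, and all 3 had a row among the 6100 open reading frames measured. The study hybridised RNA of a strain lacking USV1 (YPL230W, which encodes a zinc finger protein; labelled delUSV1) and of wild type (DBY8778) to 2-colour spotted arrays, each against a reference RNA that the labels do not describe. Each strain had 6 arrays over a stationary phase course, 1 per time point: delUSV1 at 0, 2, 5, 7 and 9 hours and 1 day, and wild type at 0, 3, 5, 7 and 9 hours and 1 day. The labels give no medium, no event from which the hours count, no further genotype and no repeat culture.

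Yeast growing on glucose excretes ethanol and acetate, and after glucose runs out it takes these products up again and burns them by respiration, building sugars through the glyoxylate cycle and gluconeogenesis. Ady2 is known as the proton-coupled permease that brings acetate into the cell, and its gene is known to be repressed by glucose. Ato2, its close paralogue, and Ato3 are known mainly from ammonia signalling between yeast colonies, in which they are thought to export ammonia.

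Each value is a log2 ratio to the reference after every array was set to a median of 0, and a positive value is read as sample over reference. This direction is likely rather than known: it rests on USV1, whose ratio was -1.0, -1.40, 1.14, -0.98 and -0.29 in delUSV1 at 0, 5, 7 and 9 hours and 1 day, against -0.57, 0.28, 4.40, 3.94 and 2.59 in wild type. The USV1 probe was itself higher late than early in delUSV1, by 1.69 (SE 0.63, adjusted p = 0.0452, limma), and what it reads in a strain without the gene was not tested. The arrays hold values for 5931 to 6085 genes each, and no 2 arrays correlated below -0.0713 over genes. A spotted probe can bind transcripts of a close relative, so ADY2 and ATO2 may each carry signal of the other, and this was not tested. The level of a gene relative to the reference cannot be set against that of another gene, so only changes are compared between members.

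ADY2 rose late in both strains. In the order of sampling, 0 hours to 1 day, its log2 ratio was -0.27, -0.46, 0.68, 4.21, 5.31 and 4.50 in delUSV1. The 6 wild-type arrays gave -0.77, -0.13, 0.07, 4.15, 5.04 and 3.50 in that order. The 6 arrays from 7 hours on were all above the 6 earlier ones, with a gap of 2.82 between the lowest late and the highest earlier value. In both strains its highest value was that of the 9-hour array.

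The fit set the late arrays (7 hours, 9 hours and 1 day, 3 per strain) against the early arrays (0 hours and 2 or 3 hours, 2 per strain) and left out the 5-hour arrays. Averaged over the strains, ADY2 was higher late by a log2 of 4.86 (SE 0.30, 29.0-fold, adjusted p = 2.92e-08, limma over 5698 genes, n = 6 late and 4 early arrays). That was the 19th largest rise of all genes tested. In this comparison 27.6% of genes were called higher and 27.1% lower, so the call alone does not set ADY2 apart. In RNA of a whole culture, a change in a share of the cells and a change in every cell cannot be told apart. The rise was 5.04 (SE 0.43, adjusted p = 1.97e-06) in delUSV1, where 19.8% of genes were called higher, and 4.68 (SE 0.43, adjusted p = 3.84e-06) in wild type, where 18.2% were.

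ATO2 also rose in both strains, and in delUSV1 its ratio was already high on the 5-hour array. In the order of sampling its log2 ratio was -0.62, -0.92, 2.65 (5 hours), 4.01, 2.97 and 4.76 in delUSV1. The wild-type arrays gave -1.04, -0.88, -0.87 (5 hours), 3.53, 4.12 and 2.51. The 5-hour array of delUSV1 stood with the late arrays and that of wild type with the early ones, and a gap of 3.13 separated the 2 sets. In delUSV1 ATO2 fell by 1.04 between 7 and 9 hours, so its next step starts from a lower array. Wild type fell by 1.61 between 9 hours and 1 day while delUSV1 gained 1.79. These were the 42nd largest fall of 5982 genes and the 50th largest gain of 6040 genes over that interval, each from a single pair of arrays.

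Late minus early, ATO2 was higher by 4.52 averaged over the strains (SE 0.34, 22.9-fold, adjusted p = 1.32e-07, limma), the 27th largest rise. It was 4.68 (SE 0.49, adjusted p = 8.03e-06) in delUSV1 and 4.35 (SE 0.49, adjusted p = 1.37e-05) in wild type. With the 5-hour arrays counted as early, the rise of ATO2 in delUSV1 was 3.54 and no longer passed (adjusted p = 0.0580). With them counted as late, the wild-type rises of ADY2 (3.64, adjusted p = 0.0898) and ATO2 (3.28, adjusted p = 0.0750) no longer passed either, while both averages over the strains still did. Calls over all genes also dropped steeply, in delUSV1 under the first setting and in wild type under the second (counts in the closing section). The lost calls therefore do not set ADY2 or ATO2 apart from other genes.

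ATO3 went the other way. In the order of sampling its log2 ratio was -0.02, 0.29, -2.50, -2.22, -0.60 and 0.06 in delUSV1. In wild type it was 0.63 at 0 hours, had no value at 3 hours, and then read -1.48, -1.53, -2.40 and -1.80. In delUSV1 the ratio was low at 5 and 7 hours only, and by 1 day stood at its 0-hour level within the residual SD of 0.80. In wild type all 4 arrays from 5 hours on were low.

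The missing array kept ATO3 out of the fit above, so its values come from a fit that asked for 1 early value per strain and was added after the values were seen. In that fit 26.5% of 6083 genes were called lower. ATO3 fell by 1.80 averaged over the strains (SE 0.42, adjusted p = 0.00270, limma, n = 6 late and 3 early arrays). The fall was 2.54 in wild type (a log2 difference of -2.54, SE 0.66, adjusted p = 0.00848), where 19.4% of genes were called lower and ATO3 had 1 early array. In delUSV1 the difference was -1.06 (SE 0.52, adjusted p = 0.123) and did not pass (19.1% of genes were called lower). Without the 1-day array of delUSV1 it was -1.55 and passed (adjusted p = 0.0266). With the 5-hour arrays counted as early, the difference averaged over the strains was -0.83 and did not pass (adjusted p = 0.310, limma). ATO3 was already low on those arrays, and why the call was lost was not tested.

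**Figure D1:**
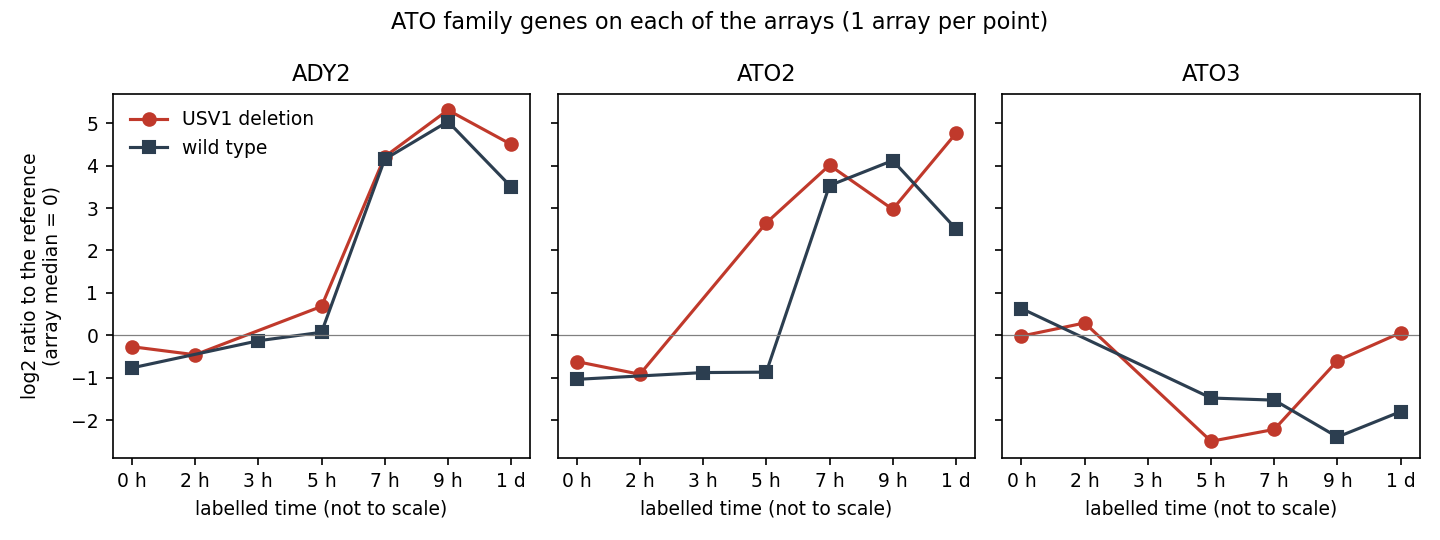
Log2 ratio to the reference (y axis, array median at 0) of ADY2, ATO2 and ATO3 at each labelled time (x axis, not to scale), with USV1 deletion arrays in red circles and wild-type arrays in dark squares, 1 array per point. ADY2 is high from 7 hours on in both strains, ATO2 is at 2.65 in the deletion and -0.87 in wild type at 5 hours, and ATO3 is low from 5 hours on in wild type but back at 0.06 by 1 day in the deletion.

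The members' late changes were compared with each other within each array, where the array's centring drops out. The late minus early change of ADY2 exceeded that of ATO3 by 6.82 (6.09 in delUSV1 and 7.54 in wild type; exact permutation test within strains, two-sided, p = 0.025, adjusted p = 0.0375 over 3 pairs, 9 arrays). That of ATO2 exceeded ATO3 by 6.35 (5.74 in delUSV1 and 6.97 in wild type; exact p = 0.025, adjusted p = 0.0375), and 0.025 is the smallest p that 40 arrangements allow. ADY2 and ATO2 differed by 0.34 in this change (exact permutation p = 0.67, 100 arrangements), less than the residual SD of either gene (0.59 for ADY2 and 0.71 for ATO2). Arrays of 1 course are not independent draws, so these p-values treat neighbouring times as interchangeable. The early and late split was itself chosen with earlier results of these data known, so the p-values are not a separate check of it.

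At 5 hours more genes differed between the strains than at any other shared time, and the 3 genes stood apart from each other. The share of a gene's late minus early log2 change that was present at 5 hours serves as a measure of timing, given here as a description from single arrays. In delUSV1, the 916 genes called higher late by at least 2-fold had a median share of 103% (interquartile range 67.9% to 131%). The 5-hour delUSV1 array had the widest spread over genes of all 12 (SD 1.63). Later delUSV1 arrays had SDs of 1.43, 1.17 and 1.31, and arrays were centred but not scaled. How far this spread enters the shares was not tested. ATO2 had reached 73.0%, and 266 of the 916 genes had a smaller share. ADY2 had reached 20.7%, and 49 of the 916 had a smaller share. ADY2 then gained 3.53 between 5 and 7 hours in delUSV1, the 14th largest gain of 6052 genes, whereas ATO2 gained 1.36.

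In wild type at 5 hours the 822 genes called higher by at least 2-fold had a median share of 21.2%, with ADY2 at 11.1% and ATO2 at 2.07%. Both genes made their rise between 5 and 7 hours there, by 4.08 for ADY2 and 4.40 for ATO2, the 33rd and 22nd largest gains of 5880 genes. ATO3 had already dropped. Its wild-type ratio fell by 2.11 between 0 and 5 hours, the 12th largest fall of 5936 genes, and its share at 5 hours was 83.1%. In wild type 20% of genes were called lower in the fit without ATO3, 977 of them by at least 2-fold with a median share of 18.2%, and 962 of these had a smaller share than ATO3.

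Genes that make and use acetate or take up carboxylates spread over the same range of timing in delUSV1. Among those that rose, the mitochondrial and cytosolic aldehyde dehydrogenases ALD4 (149%), ALD2 (179%) and ALD3 (195%), which turn acetaldehyde into acetate, were past their late level at 5 hours. ACH1 (70.7%), a CoA transferase acting on acetate, the lactate permease JEN1 (62.2%), the acetyl-CoA synthetase ACS1 (48.4%) and the isocitrate lyase ICL1 (41.5%) stood partway, as ATO2 did. CIT2 (10.1%), the peroxisomal citrate synthase, PCK1 (4.48%), the first committed enzyme of gluconeogenesis, SFC1 (2.60%), the succinate-fumarate carrier, MLS1 (-2.40%), the malate synthase, and FBP1 (-3.18%), a gluconeogenic phosphatase, had hardly left their early level. ADY2 lay between the last 2 sets. Of the other genes listed for carboxylate uptake and export, MCH1 stood at 123% and MCH2, not called in delUSV1, at 78.8%. On the single wild-type 5-hour array the order was not the same. SFC1 (26.4%) stood above ALD3 (24.4%) and ALD2 (23.8%) there, and ALD4 was at 4.76%, while PCK1 (0.0%) and CIT2 (-5.01%) were again low. ALD2 and ALD3 are near-identical neighbours, so their values are uncertain.

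**Figure D2:**
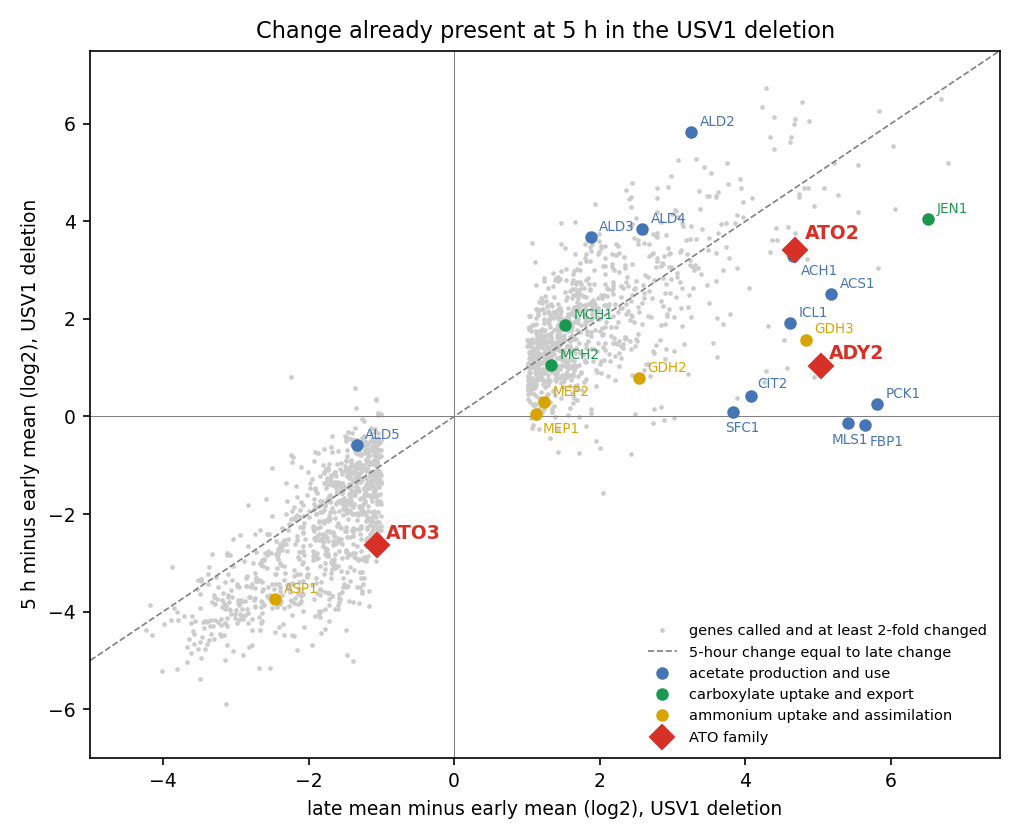
For the USV1 deletion, the change from the early mean to the 5-hour array (y axis, log2) against the change from the early mean to the late mean (x axis, log2), 1 point per gene. Grey points are genes called late minus early and changed at least 2-fold, coloured points are the ATO genes and the listed genes changed at least 2-fold, called or not (ATO3 was not), and the dashed line marks equal change. ATO2 has 73.0% and ADY2 20.7% of its late change at 5 hours, while PCK1, MLS1, FBP1 and SFC1 lie near 0.

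Between the strains, no member passed at any level of averaging. Over the 5 shared time points delUSV1 minus wild type was 0.49 for ADY2 (SE 0.23, 95% interval -0.04 to 1.02), 1.10 for ATO2 (SE 0.60, interval -0.26 to 2.47) and 0.26 for ATO3 (SE 0.49, interval -0.86 to 1.38), with adjusted p = 0.814, 0.814 and 0.899 (limma). In that comparison 0% of 6062 genes were called (0 genes by limma, 260 at an unadjusted p under 0.05). The deleted gene USV1 was itself not called, at -2.63 and an adjusted p of 0.814 (limma), so an absent call says little here. The intervals reflect scatter of the strain difference over time points, not between cultures, so they do not bound the effect of the deletion. ADY2 was higher in delUSV1 at all 5 shared times, by as little as 0.06 (7 hours) and as much as 1.0 (1 day). ATO2 was higher at 4 of 5 times, by 3.52 at 5 hours and 2.25 at 1 day, and lower by a log2 difference of -1.15 at 9 hours.

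ATO3 changed side over the course. Its difference, delUSV1 minus wild type, was -0.65, -1.02 and -0.69 on the first 3 shared times and 1.80 and 1.86 on the last 2 (9 hours, 1 day). At 9 hours this was the 26th highest of 6054 genes and at 1 day the 40th highest of 5967, and at 1 day ATO2 was the 12th highest. At 5 hours 40.4% of genes were at least 2-fold apart between the strains, against 6.28% at 9 hours and 17.9% at 1 day. Averaged over the late arrays, delUSV1 minus wild type was 0.44 for ADY2 (SE 0.38), 0.53 for ATO2 (SE 0.43) and 0.99 for ATO3 (SE 0.46, unadjusted p = 0.0521, adjusted p = 0.427, limma). Here 0% of genes were called both in the fit with ADY2 and ATO2 (0 genes by limma, 677 of 5698 at an unadjusted p under 0.05) and in the added fit with ATO3 (0 genes, 711 of 6083).

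The difference between the strains in the late minus early change was tested as an interaction, for ATO3 again in the added fit. It was 0.36 for ADY2 (SE 0.60, interval -0.93 to 1.65), 0.34 for ATO2 (SE 0.69, interval -1.13 to 1.80) and 1.49 for ATO3 (SE 0.84, interval -0.32 to 3.29), with adjusted p = 0.976, 0.976 and 0.960 (limma). Here too 0% of genes were called, with 0 genes by limma and 238 of 5698 at an unadjusted p under 0.05 in the fit with ADY2 and ATO2, and 0 genes and 249 of 6083 in that with ATO3. The smaller fall of ATO3 in delUSV1 is therefore not shown to differ from that in wild type.

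**Figure D3:**
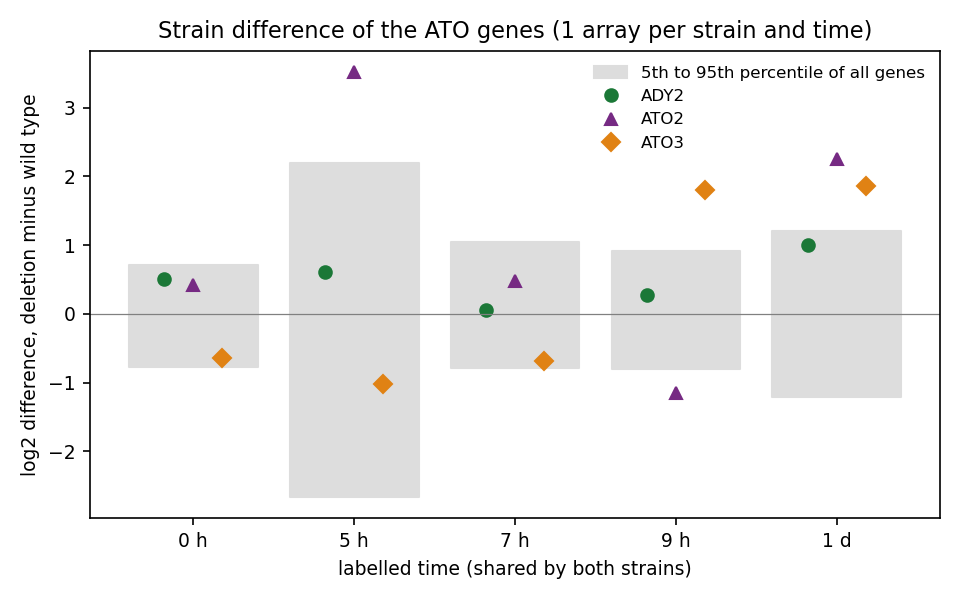
Log2 difference, USV1 deletion minus wild type (y axis), of ADY2, ATO2 and ATO3 at each of the 5 labelled times both strains share (x axis), 1 array per strain and time, with grey bars for the 5th to 95th percentile of all genes. ADY2 stays within the bars at each time, ATO2 lies above them at 5 hours and 1 day and below at 9 hours, and ATO3 lies above them at 9 hours and 1 day.

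From 0 hours to 1 day (2 arrays per time point, 1 of each strain) ADY2 rose by 4.52 (SE 0.36, adjusted p = 0.00161) and ATO2 by 4.47 (SE 0.94, adjusted p = 0.0399), and ATO3 stood at -1.18 (SE 0.77, adjusted p = 0.341; limma). Only 3.1% of 5838 genes were called higher here, and 1.22% lower. The balance of calls depended on the scaling: 181 genes higher and 71 lower here, 174 and 124 without centring, and 770 and 732 once arrays were quantile normalized. Without the 7-hour arrays ATO2 no longer passed at the same estimate (adjusted p = 0.0797, limma). Only 54 genes were called in that run, so the lost call does not set ATO2 apart.

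Of the 15 genes listed for acetate production and use, 14 entered the late minus early fit, and 10 rose, 3 fell and 1 did not pass, where 27.6% of all genes were called higher and 27.1% lower. Their median was 3.78, beside 0.06 over all genes tested, and 1.96 after quantile normalization. This list and those below were chosen with earlier results of these data known, so such figures describe the listed genes and test nothing. FBP1 rose by 5.55 (SE 0.65), PCK1 by 5.31 (SE 0.36), MLS1 by 5.01 (SE 0.54), ACS1 by 4.37 (SE 0.40) and ACH1 by 4.33 (SE 0.28), where 6.63e-06 was the highest adjusted p (limma), and ADY2 lay within this range of rises. The genes that fell in this average over the strains were ALD6 (-1.86, SE 0.35), ALD5 (-1.25, SE 0.27) and ADH2 (-0.97, SE 0.32). ALD6 is the main cytosolic aldehyde dehydrogenase of growth on glucose. ADH2 is the ethanol-oxidising alcohol dehydrogenase, and its probe can bind its near-identical relatives. In delUSV1 only ALD5 of these passed (-1.34, adjusted p = 0.0136, limma). ALD6 stood at -0.997 there (adjusted p = 0.124) and ADH2 at -0.36 (adjusted p = 0.56). All 3 passed in wild type, at -2.725 for ALD6, -1.15 for ALD5 and -1.59 for ADH2. No gene was called for the difference between the strains in this change. Averaged over the strains, ACS2, the acetyl-CoA synthetase of growth on glucose, was at -0.76 (adjusted p = 0.0894). ICL1 lacked an early wild-type value and was higher by 4.10 (SE 0.42) with 1 early value per strain allowed.

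Of 9 genes listed for carboxylate uptake and export, 7 were tested, and 2 rose, 2 fell and 3 did not pass, with a median of -0.01 (-0.39 after quantile normalization). These counts are near the background of 27.6% higher and 27.1% lower. JEN1, which carries lactate and pyruvate by proton symport, rose by 6.07 (SE 0.27, adjusted p = 2.13e-09), more than ADY2. MCH1, a homologue of monocarboxylate transporters, rose by 1.17 (SE 0.23). MCH2, outside this fit, was higher by 1.23 with 1 early value per strain allowed. FPS1, an aquaglyceroporin that also lets acetic acid through, fell by 0.81 (SE 0.19), and the riboflavin transporter MCH5 fell by 0.83 (SE 0.20). PDR12, an exporter of weak acids, was at -0.37 (adjusted p = 0.350).

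In ammonium uptake and assimilation 9 of 10 listed genes were tested, and 5 rose, 1 fell and 3 did not pass, with a median of 0.65, beside 27.6% of all genes called higher and 27.1% lower. GDH3, a glutamate dehydrogenase of nonfermentative growth, rose by 4.02 (SE 0.32) and GDH2, which releases ammonia from glutamate, by 2.43 (SE 0.27). The ammonium permeases MEP2 (1.58, SE 0.33) and MEP1 (1.05, SE 0.22) also rose, and MEP3 was at 0.43 (adjusted p = 0.177). GDH1, the glutamate dehydrogenase of growth on glucose, fell by 1.04 (SE 0.29); it and GDH3 are close paralogues, so their values are uncertain. ASP1, an asparaginase that also releases ammonia, was at -2.52 (SE 0.28) in the fit with 1 early value per strain, so the listed genes that release ammonia were not all on one side.

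Of 18 listed regulators 6 rose and 12 did not pass, with a median of 0.48 (0.24 after quantile normalization). The count that rose is near the background of 27.6% called higher. SIP4 (3.71, SE 0.32) and CAT8 (3.46, SE 0.30), activators of gluconeogenic genes, led, followed by ADR1 (1.53, SE 0.20), an activator of genes for ethanol use, STP2 (1.52, SE 0.21), a factor downstream of the amino acid sensor, RTG3 (1.43, SE 0.21), a factor of the retrograde pathway, and STP1 (0.74, SE 0.21). In delUSV1 at 5 hours CAT8 was at 2.56, near its late mean of 2.41, while SIP4 was at 0.20 against a late mean of 3.16. GCN4, which is known to activate ATO3 and is controlled largely through translation, was at -0.04 (adjusted p = 0.899), and SSY1, the amino acid sensor, at 0.22 (adjusted p = 0.425).

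**Figure D4:**
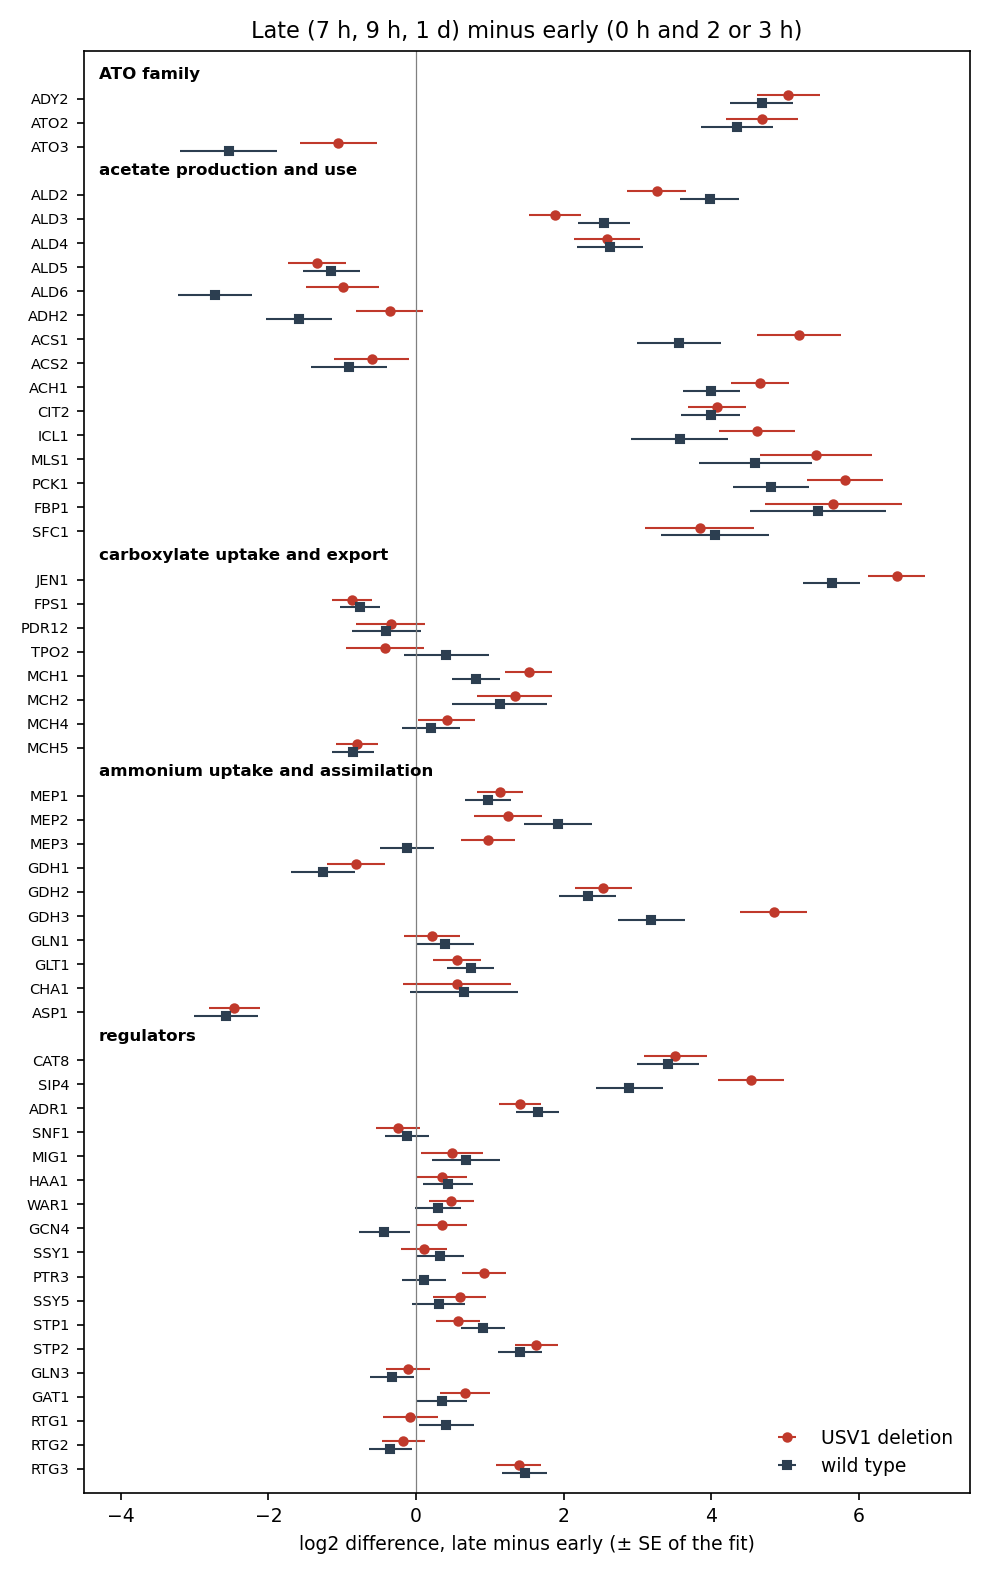
Late minus early log2 difference (x axis, bars ± SE of the fit) of the ATO genes and of each listed gene with a value, with USV1 deletion in red circles above wild type in dark squares. ADY2 and ATO2 lie above 4 in both strains, and ATO3 lies at -1.06 in the deletion and -2.54 in wild type.

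The genes beside the members on the chromosome did not share one pattern. ATO2 adjoins CIT1, the mitochondrial citrate synthase, which rose by 3.38 (SE 0.22), and RPC34, a subunit of RNA polymerase III, which fell by 0.79 (SE 0.26). CIT1 was at 4.37 in delUSV1 and 2.21 in wild type at 5 hours. Beside ADY2, the transporter gene ADP1 rose by 1.06 (SE 0.25), and RVS161, of the actin cytoskeleton, was at 0.37 (adjusted p = 0.111). Beside ATO3, the kinetochore gene NKP1 was at -0.12 (adjusted p = 0.690), and the translation elongation factor EFT2, uncertain because EFT1 encodes the same protein, was at -2.61 (SE 0.28) with 1 early value per strain.

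Likeness was measured as Pearson's r over the arrays, among 5362 genes with a value on all 12; with a high and a low set of arrays for each gene, r reflects mostly which arrays fall in which set. ADY2 was most like YAT1, an outer mitochondrial carnitine acetyltransferase (r = 0.988), PCK1 (0.986), PDH1, of propionate metabolism (0.980), CIT2 (0.975) and YOL134C (0.970). At 5 hours in delUSV1 YAT1 was at 0.03, against a late mean of 4.17, and PDH1 at 0.04, while YOL134C changed little over the whole course (0.81 late minus early, SE 0.19). ATO2 was most like HXT5, a hexose transporter with close relatives its probe may bind (0.994), YNL013C (0.993), the phosphatidate phosphatase PAH1 (0.988), the zinc finger gene LEE1 (0.988) and FMP46, of mitochondria (0.986). At 5 hours HXT5 was at 4.25 in delUSV1 and -0.16 in wild type, and LEE1 at 2.96 and -0.29 in the same strains. All of these genes were picked over arrays that include the 5-hour ones, so their values there are not separate support.

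ADY2 and ATO2 correlated with each other at r = 0.915, and ATO2 ranked 82nd of 5361 genes in likeness to ADY2. ATO3 correlated at -0.424 with ADY2 and at -0.536 with ATO2 over 11 arrays. Over these, ATO3 was most like LYS21, a homocitrate synthase of lysine synthesis (0.943), HOT13, of the mitochondrial intermembrane space (0.926), the replication genes CDC6 (0.923) and MCM3 (0.917), and ANB1, the hypoxic isoform of translation factor eIF5A (0.910). LYS21 fell by 0.95 late minus early (SE 0.21) and ANB1 by 1.27 (SE 0.27), smaller falls than that of ATO3. ANB1 was at -0.27 in delUSV1 and -1.46 in wild type at 1 day. It was picked over arrays that include these, so sharing the order of strains with ATO3 there is not separate support.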

How the data were processed

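The values the authors deposited were read as log2 ratios, with 1 value for a gene on each of 12 arrays. How they were scanned, filtered and normalized is not given in the sources used here. Log base, direction and reference are not stated, so base 2 and sample over reference were taken. Precision is limited by the number of arrays. The table had 0 columns from samples outside the series. Array medians were set to 0. Gene names (5592 matched) and neighbours came from a RefSeq table of assembly R64. Neighbours are the nearest genes with a measured row, by order of gene start on the chromosome.

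Models were fitted over all genes with limma 3.58.1 (lmFit, eBayes; R 4.3.3), with p-values adjusted by Benjamini-Hochberg and called at 0.05. Late minus early used 4 strain-by-period means, with at least 2 late and 2 early values per strain (1 early in the added fit for ATO3). The strain effect and 1 day minus 0 hours used the 5 shared time points, with time point as a factor and at least 4 values per strain. Arrays of neighbouring times stand in for replicates, so p-values measure scatter within a period or of the strain difference over times, not between cultures. Fits were tested on simulated data.

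Named genes are the members, their neighbours, USV1, 52 genes in 4 lists from textbook knowledge and the 5 genes most like each member. Members and lists were chosen with earlier results of these data known, as was the early and late split. TPO3 had no row. Alternatives were no centring, quantile normalization, complete genes only, trend and robust eBayes, another place for the 5-hour arrays, time point left out, and each array or time point left out. No promoter or protein sequences were used here.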

Additional observations from a re-analysis of the deposited data

How the results depend on the processing

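The late minus early rises of ADY2 and ATO2 averaged over the strains passed under every alternative run (4.66 to 5.04 and 4.30 to 4.75 without 1 array at a time). The fall of ATO3 passed under all but 1 of the runs that it entered. ATO3 could not be fitted without wild-type 0 hours, its only early wild-type array, so how far the fall rests on that array was not tested. Where a period is left with 1 array, its spread is taken from the others. With the 5-hour arrays counted as early, ATO3 stood at -0.83 averaged and -1.49 in wild type, ATO2 in delUSV1 at 3.54, none of them called, and the strain difference of the ATO2 change turned to -0.77. Genes called then numbered 1811 averaged, 78 in delUSV1 and 929 in wild type. With these arrays counted as late, ADY2 (3.64), ATO2 (3.28) and ATO3 (-2.43) were not called in wild type, where 177 genes were. The cause was not tested.

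Without 1 array at a time, genes called ranged from 1283 (without delUSV1 0 hours; 1458 without its 2 hours) to 2352 in delUSV1 and from 1230 (without wild-type 0 hours) to 2339 in wild type, ATO3 in delUSV1 from -1.55 to -0.41 (called without its 1-day array), and late strain calls from 0 to 1 (without delUSV1 7 hours or wild-type 1 day). Uncalled strain differences changed sign: the change of ADY2 (-0.0067 without wild-type 1 day, to 0.76) and ATO2 (-0.10 without wild-type and -0.09 without delUSV1 1 day, to 0.81), ADY2 early (-0.24 without wild-type and -0.01 without delUSV1 0 hours, to 0.41), and ATO3 over shared times (-0.14 without 1 day and -0.13 without 9 hours, to 0.58). Quantile normalization called 1 gene for the strain difference of the change and 4 early. For 1 day minus 0 hours, 1502 genes were called after quantile normalization and 766 with trend and robust eBayes, 54 without 7 hours (ATO2 at 4.47, uncalled) and 1807 without 5 hours.

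List counts moved too. With 5-hour arrays early, 1 acetate gene, 0 carboxylate and 0 ammonium genes fell. With them late, 3 ammonium genes rose and 0 fell. With complete genes only, 1 carboxylate gene rose and 0 ammonium genes fell. After quantile normalization 1 carboxylate gene and 3 regulators fell. With 1 early value per strain 2 ammonium genes fell, and 0 to 2 without 1 array. The strain effect over shared times was matched by time point, and the labels give no replicate numbers by which to pair arrays otherwise.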
